A study of Mus musculus with 12 samples.

Results

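Stbd1 (starch binding domain 1) encodes a membrane-anchored protein that binds glycogen and is known for carrying it towards the lysosome. It was taken here together with the genes of glycogen synthesis and breakdown in the mouse heart. The genes were chosen from a list of 9 symbols (Stbd1, Gys1, Gyg, Gbe1, Pygm, Pygb, Phka1, Ppp1r3c and Gaa), and every array probe that the platform annotation names for one of them was read. That gave 6 probes for 5 of the 9 genes, among 17742 genes with a named probe: 1 each for Stbd1, Gbe1, Phka1 and Ppp1r3c, and 2 for Gaa. For Gys1, Gyg, Pygm and Pygb the annotation names no probe, and they were not analysed here. Stbd1 was picked for its lower level in both mutant samples, so that difference is described and not tested, whereas the other genes were taken for their pathway.

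The arrays profiled whole hearts of mice at postnatal day 8 on a C57bl/6 X 129 hybrid background, although the source field names embryonic tissue. The mutant group, Salv CKO, carries a conditional mutation of Salvador (Sav1), the scaffold of the Hippo kinase pathway, and the Control group is labelled wild-type. Each group had 2 biological samples, each hybridised to 3 technical arrays, 12 arrays in all. The sources used here do not name the Cre driver, the deleted part of Sav1 or whether hearts were pooled. Nothing says that the samples of a group came from separate animals, so p-values do not measure a known spread between animals. They rest on the spread between these samples, which the test used (limma) draws towards a value shared by all probes. In whole hearts, fewer cells of a type and less RNA per cell cannot be told apart.

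Glycogen is a branched store of glucose, which heart muscle holds in large amounts before and shortly after birth. Glycogenin and glycogen synthase build the chains and the branching enzyme adds the branches. In the cytosol, glycogen phosphorylase, switched on by phosphorylase kinase, releases the glucose units, and protein phosphatase 1, held at the particle by targeting subunits, opposes that kinase. A separate route delivers whole particles to the lysosome, where acid alpha-glucosidase digests them, and Stbd1 is the glycogen receptor proposed for that delivery.

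Deposited values ran from -10 to 65474, with array medians from 58 to 88, and the arrays were quantile normalized before use. Levels below are log2(normalized intensity + 1), averaged over the 3 arrays of a sample. The targeted gene Sav1 did not follow the labels: its level was 8.06 and 8.52 in Salv CKO 1 and 2, and 8.75 and 8.08 in Control 1 and 2, so Salv CKO below means the samples labelled so. Whether the probe lies in the deleted part is not known here. Heart muscle markers were bright in all 4 samples: the 7 measured markers of 14 listed had mean levels from 14.96 to 15.04. Over all 26423 probes, 0 (a share of 0%) passed an adjusted p of 0.05 in limma, where 1048 had an unadjusted p under 0.05, so no gene described here is a called change.

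The Hippo pathway ends in the TEAD family of DNA-binding factors, and the lysosomal route is under factors that bind E-boxes. Sequences upstream of the 5 measured genes were searched for the TEAD motif, the E-box and the GC box. The sequences of 3 genes are shown: Stbd1, and Gaa and Ppp1r3c, the genes with a match to the TEAD motif or the E-box. They are the 250 bases before the RefSeq start of each gene in the GRCm38.p6 assembly, written 5′ to 3′ on the strand of the gene. Stbd1 lies at chr5:92602801-92603050, plus strand, and capitals mark GC boxes (GGGCGG or its reverse complement CCGCCC).
Stbd1: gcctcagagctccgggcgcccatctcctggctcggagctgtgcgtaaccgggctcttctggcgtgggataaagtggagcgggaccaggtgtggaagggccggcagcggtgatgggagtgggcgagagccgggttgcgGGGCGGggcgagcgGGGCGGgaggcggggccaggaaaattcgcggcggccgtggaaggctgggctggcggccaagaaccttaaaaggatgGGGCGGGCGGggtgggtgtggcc
Gaa lies at chr11:119267713-119267962, plus strand, and Ppp1r3c at chr19:36736605-36736854, minus strand. In both, capitals mark the core TEAD motif (CATTCC or its reverse complement GGAATG) and the E-box (CACGTG, the same on both strands).
Gaa: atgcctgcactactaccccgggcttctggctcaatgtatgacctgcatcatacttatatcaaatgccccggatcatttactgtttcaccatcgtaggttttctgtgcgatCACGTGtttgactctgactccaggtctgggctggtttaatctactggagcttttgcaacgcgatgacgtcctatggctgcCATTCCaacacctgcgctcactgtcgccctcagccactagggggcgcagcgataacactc
Ppp1r3c: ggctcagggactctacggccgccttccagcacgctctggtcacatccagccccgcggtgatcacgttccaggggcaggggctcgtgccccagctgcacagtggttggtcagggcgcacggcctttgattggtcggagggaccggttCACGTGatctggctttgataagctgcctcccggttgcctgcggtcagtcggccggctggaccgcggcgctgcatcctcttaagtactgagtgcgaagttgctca

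The Stbd1 window held 4 GC boxes, of which 2 overlap, and neither the TEAD motif nor the E-box. A GC box was found in 32.7% of 32851 such windows of RefSeq genes, the TEAD motif in 12.6% and the E-box in 6.02%. The Gaa window held 1 TEAD motif, which began 60 bases before the start, and 1 E-box 140 bases before it. The Ppp1r3c window held 1 E-box, 104 bases before the start. The Phka1 window held 3 GC boxes and the Gbe1 window none of the 3 motifs. The Stbd1 window was 71.2% G or C, against a median of 52.4% over all windows. A match to these letters describes the sequence and is no evidence of binding.

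Stbd1 was low on all 6 Salv CKO arrays and high on all 6 Control arrays. The deposited intensities were 289, 293 and 259 on the arrays of Salv CKO 1 and 352, 290 and 347 on those of Salv CKO 2. They were 1629, 1490 and 1508 in Control 1 and 1072, 997 and 1038 in Control 2. Thus the brightest Salv CKO array, at 352, lay well under the dimmest Control array, at 997, before the quantile normalization.

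After normalization the Stbd1 level was 8.29 and 8.14 in Salv CKO 1 and 2, and 10.50 and 10.15 in Control 1 and 2. The group means were 8.22 ± 0.11 (SD, n = 2) and 10.32 ± 0.25 (SD, n = 2), a difference of -2.11 on the log2 scale, or a level 4.31-fold higher in the controls. The 2 Salv CKO samples lay close together. The controls were farther apart, with Control 1 above Control 2 by 0.35. The gap between the highest Salv CKO and the lowest Control sample was 1.85, and between the nearest single arrays 1.73. Technical error was small beside this, with an SD of 0.025 to 0.068 over the 3 arrays of a sample. Without any 1 of the 4 samples the difference ran from -2.28 to -1.93. Among all 17742 genes, 10 had a difference at or below that of Stbd1, itself counted. Of the 10594 genes whose probe was at or above the median brightness, 6 did. Since Stbd1 was picked for a low level in Salv CKO, these ranks only describe it.

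**Figure D1:**
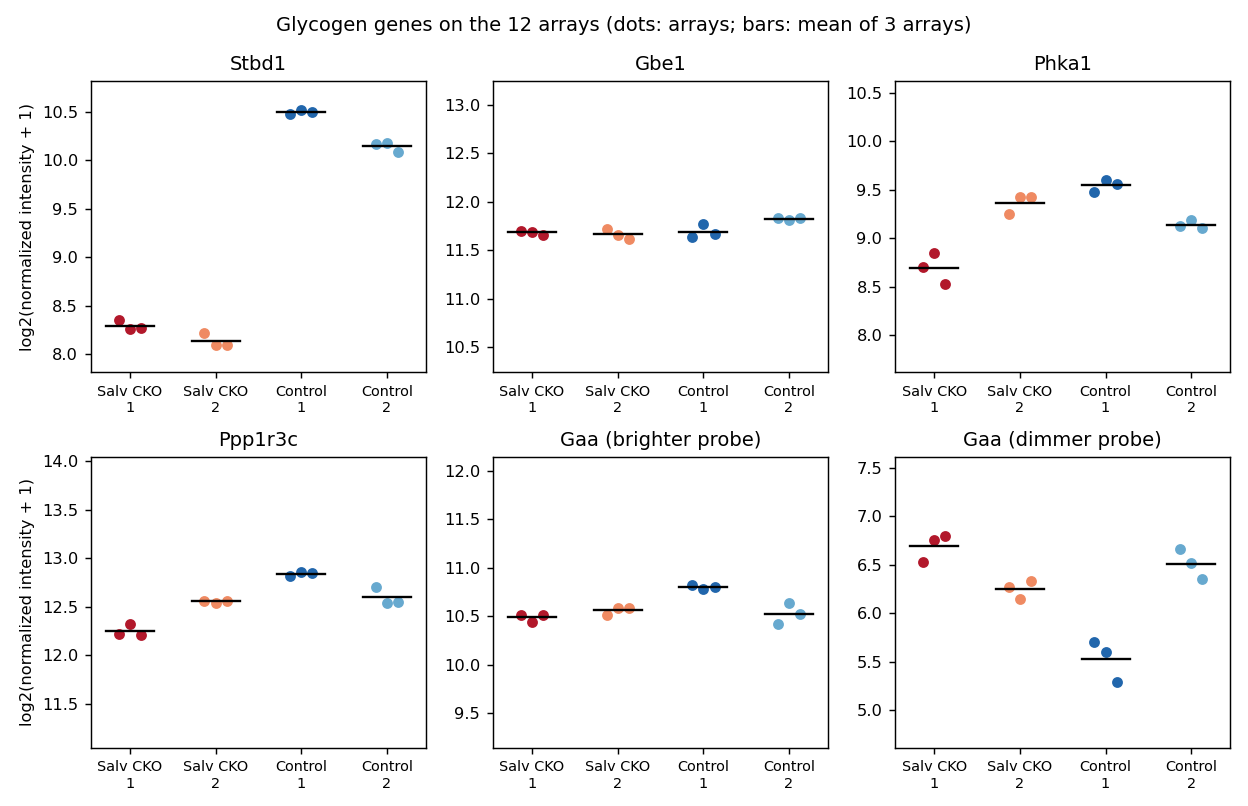
Level of each glycogen gene probe on the 12 arrays, as log2(normalized intensity + 1), by biological sample; dots are the 3 technical arrays, black bars their mean, and every panel spans 3 log2 units. Stbd1 separates the groups by 1.73 between the nearest arrays, while the arrays of the groups overlap in the other 5 panels.

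The branching enzyme gene Gbe1, whose product adds the branch points of glycogen, was nearly level across the samples. It stood at 11.68 and 11.66 in Salv CKO 1 and 2, and at 11.69 and 11.83 in Control 1 and 2. Its difference was -0.084 ± 0.21 (SE; 95% interval -0.64 to 0.47; limma, adjusted p = 0.998). The groups did not overlap, but the gap between the nearest samples was 0.0081, and the single arrays overlapped. The interval leaves out a change of the size seen in Stbd1, which was picked for its difference.

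Phka1, the regulatory alpha subunit of phosphorylase kinase in muscle, varied more within the groups than between them. Its levels were 8.70 and 9.37 in Salv CKO 1 and 2, and 9.54 and 9.14 in Control 1 and 2. The difference was -0.31 ± 0.33 (SE; 95% interval -1.18 to 0.56; limma, adjusted p = 0.998). Salv CKO 2 lay above Control 2, so the groups overlapped, and without Salv CKO 1 the difference turned to 0.025.

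Ppp1r3c, a targeting subunit (PTG) that brings protein phosphatase 1 to glycogen and so favours its synthesis, stood at 12.25 and 12.55 in Salv CKO 1 and 2. In the controls it stood at 12.84 and 12.59. The groups did not overlap, though only 0.041 parted Salv CKO 2 from Control 2, and the single arrays overlapped. The difference was -0.31 ± 0.24 (SE; 95% interval -0.95 to 0.32; limma, adjusted p = 0.998).

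Gaa, the acid alpha-glucosidase that digests glycogen in the lysosome and is lost in Pompe disease, was read by 2 probes that went opposite ways. On the brighter probe it stood at 10.49 and 10.56 in Salv CKO 1 and 2, and at 10.80 and 10.53 in Control 1 and 2. The difference there was -0.14 ± 0.22 (SE; limma, adjusted p = 0.998), and -0.0020 without Control 1. On the dimmer probe, at deposited intensities from 32 to 115, the levels were 6.70 and 6.25 against 5.53 and 6.51, a difference of 0.45 ± 0.41 (SE; limma, adjusted p = 0.998). Control 1 was the highest sample on one probe and the lowest on the other. Over the 12 arrays the probes had a Pearson r of -0.90, a description over 4 samples. The mean of the 2 probes differed by 0.16, so these data give no settled direction for Gaa.

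Set side by side, the other 4 measured genes showed no difference of the size described for Stbd1. Few genes did: 10 of 17742, Stbd1 itself counted, had a difference at or below its own. Stbd1 was picked for that difference, so the contrast follows from the choice and tells nothing particular to these 4 genes. Of the 4, 0 had an unadjusted p under 0.05 in limma, where 3.32% of all genes did, 1.54% higher and 1.78% lower. Without overlap and lower in Salv CKO were 2 of the 4 (Gbe1 and Ppp1r3c), against 16.5% of all genes. Phka1, Ppp1r3c and the brighter Gaa probe had their lowest level in Salv CKO 1 and their highest in Control 1. That order was held by 18.4% of all genes, and a lowest level in Salv CKO 1 by 29.3%. Phka1 and Ppp1r3c ran together over the 12 arrays (Pearson r = 0.90), whereas the r of Stbd1 was 0.48 with Phka1 and 0.75 with Ppp1r3c. These arrays come from 4 samples, and the correlations only describe them.

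The wider glycogen pathway was read from 5 lists holding 61 symbols, of which 49 had a named probe. Leaving Stbd1 aside, 0 of 48 genes had an unadjusted p under 0.05 (limma; adjusted p from 0.998), and 17 did not overlap between the groups, 9 lower and 8 higher, where 30.7% of all genes did not. The mean was lower in Salv CKO for 27 of the 48, with a median difference of -0.064, against 53.1% of all genes and a median of -0.021. That share rested on the scaling. With each array centred on its median 40 of 48 were lower (63.6% of all genes), and without normalization 22 of 48 (38.5% of all genes). No list is therefore given a direction below.

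**Figure D2:**
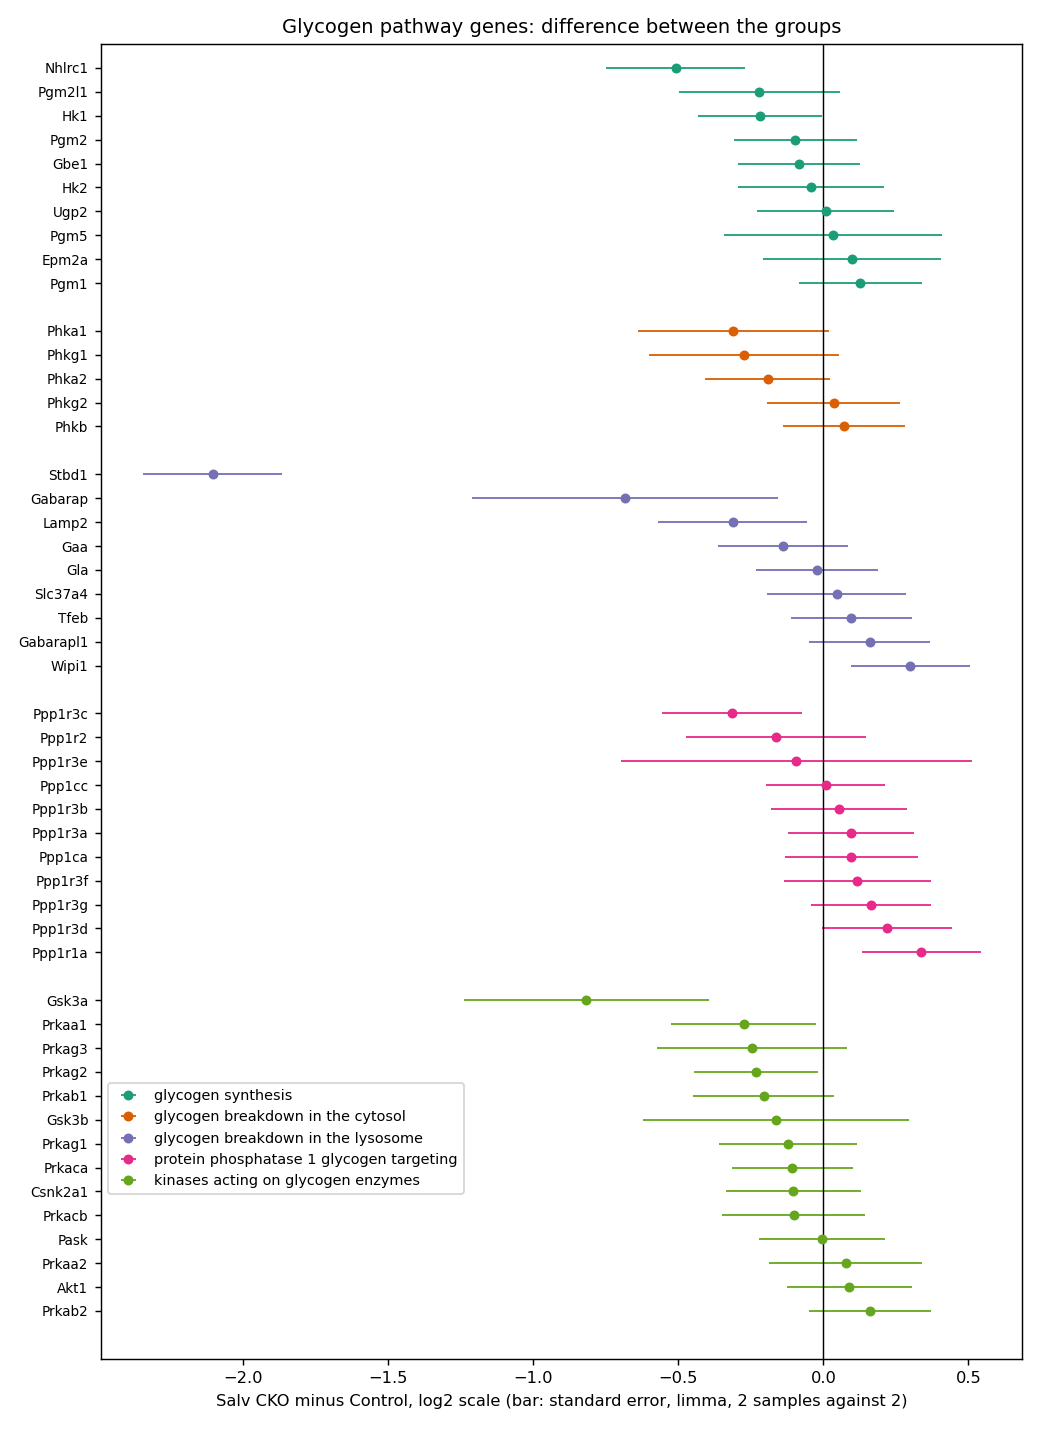
Difference between Salv CKO and Control in each measured gene of the 5 glycogen lists, on the log2 scale, with the standard error of limma (2 samples against 2). Stbd1, picked for its low level in Salv CKO, is at -2.11, so its place apart follows from that choice. The other 48 genes run from -0.82 (Gsk3a) to 0.34 (Ppp1r1a).

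Among the 10 measured genes of glycogen synthesis, 0 had an unadjusted p under 0.05, and the median difference was -0.064. Nhlrc1 (malin), a ubiquitin ligase that with laforin keeps glycogen from forming insoluble bodies, had the smallest p. It stood at 7.62 and 7.32 in Salv CKO 1 and 2 against 8.10 and 7.86 in the controls, a difference of -0.51 ± 0.24 (SE; limma, adjusted p = 0.998), and the groups did not overlap. Hk1, a hexokinase that phosphorylates glucose, differed by -0.22 ± 0.21. The annotation's PGM1 and PGM2 probes differed by 0.13 and -0.097, and since these symbols were exchanged between mouse annotations, which phosphoglucomutase each probe reads is uncertain.

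In the cytosolic breakdown list, 5 of 9 genes were measured, all of them subunits of phosphorylase kinase. The phosphorylase genes Pygm, Pygb and Pygl had no named probe. None of the 5 had an unadjusted p under 0.05, and their median difference was -0.19. Phka2, the alpha subunit of the liver form, stood at 9.18 and 9.29 in Salv CKO 1 and 2 against 9.51 and 9.34 in the controls, a difference of -0.19 ± 0.22 (SE; limma, adjusted p = 0.998). The gamma catalytic subunits Phkg1 and Phkg2 differed by -0.28 and 0.035, and the beta subunit Phkb by 0.070. None of these 3 has a settled direction. Without Control 2, Phkg1 was at 0.10 and Phkg2 at -0.12, and with median centring Phkg2 was at -0.14 and Phkb at -0.10.

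In the list of the lysosomal route, all 9 genes were measured, and Stbd1 was the one with an unadjusted p under 0.05, which its choice fixed. The list also holds Gla, a lysosomal enzyme of lipids, and Slc37a4, a glucose-6-phosphate carrier of the endoplasmic reticulum. Gabarapl1, the autophagy protein known to bind Stbd1, stood at 11.83 and 11.71 in Salv CKO 1 and 2, and at 11.63 and 11.59 in the controls. Its difference was 0.16 ± 0.21 (SE; limma, adjusted p = 0.998), and -0.057 with median centring. Wipi1, which helps form autophagosomes, differed by 0.30 ± 0.21 without overlap between the groups, and by 0.083 with median centring. Gabarap, a close relative of Gabarapl1, was at 12.01 in Control 1 and at 10.53 in Control 2, with 10.63 and 10.54 in Salv CKO 1 and 2. Its difference of -0.68 ± 0.53 rested on Control 1 and was 0.054 without it. Tfeb, a transcription factor of lysosomal genes, differed by 0.097 and Lamp2, a lysosomal membrane protein, by -0.31.

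Among the 11 measured genes around protein phosphatase 1, the median difference was 0.094, and 8 of 11 were higher (3 with median centring, 10 without normalization). The share of all genes that were lower was 53.1%, 63.6% with median centring and 38.5% without normalization. Ppp1r1a, an inhibitor of the phosphatase, stood at 11.02 and 10.96 in Salv CKO 1 and 2 against 10.64 and 10.67 in the controls, a difference of 0.34 ± 0.21 (SE; limma, adjusted p = 0.998). With median centring its difference was 0.14. Of the other targeting subunits, Ppp1r3a, that of striated muscle, differed by 0.094, Ppp1r3b by 0.055 and Ppp1r3d by 0.22, and 0 of these had an unadjusted p under 0.05. With median centring Ppp1r3a was at -0.095 and Ppp1r3b at -0.11. Ppp1r3e, at levels from 0.12 to 1.43, was too dim to be read.

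Among 14 measured kinase genes that act on glycogen enzymes, 11 were lower (13 with median centring, 8 without normalization), and the median difference was -0.12. Of all genes, 53.1% were lower, 63.6% with median centring and 38.5% without normalization. Gsk3a, a kinase that switches off glycogen synthase, differed by -0.82 ± 0.42 (SE; limma, adjusted p = 0.998) and by -0.50 with a pseudocount of 16. It ran from -1.26 without Salv CKO 2 to -0.38 without Salv CKO 1, with -0.47 without Control 1. It was dim, at levels from 3.81 to 5.42. Prkaa1, a catalytic subunit of the energy sensor AMPK, differed by -0.27 ± 0.25, and by -0.068 without Control 1. Prkag2, the AMPK subunit whose mutation causes glycogen storage in the heart, had levels of 10.90 and 11.04 in Salv CKO 1 and 2 against 11.28 and 11.13 in the controls, a difference of -0.23 ± 0.21. It was chosen after its values were seen, as were Gla, Slc37a4, Gabarapl1, Tfeb, Lamp2, Phkb, Phkg1, Phkg2, Ppp1r3a, Ppp1r3b, Ppp1r3d, Ppp1r3e and the PGM genes.

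Of the genes nearest to Stbd1 on the chromosome, the brighter ones (Scarb2, Nup54 and Shroom3) did not share its pattern. By RefSeq order, the 3 nearest measured genes on one side were Fam47e, Scarb2 and Nup54, and on the other Ccdc158, Shroom3 and Sowahb. Their differences were -0.085, 0.33, 0.24, -0.43, 0.28 and -0.20 in that order (limma, adjusted p of at least 0.998 for each). Scarb2, a lysosomal membrane protein, stood at 8.18 and 7.77 in Salv CKO 1 and 2 and at 7.03 and 8.26 in the controls. Fam47e, the nearest measured gene on its side, stood at 5.53 and 5.21 against 5.56 and 5.36. Ccdc158, at mean deposited intensities of 1.33 to 4, was too dim to be read. Fam47e, at deposited intensities of 19 to 72, and Sowahb, at 12 to 37, were dim, so little can be read from them.

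The genes most like Stbd1 came from other pathways. Likeness was the Pearson r with Stbd1 over the 12 arrays, taken among genes whose probe was at or above the median brightness. The 5 highest were Ackr3, a scavenger receptor of chemokines (r = 0.99), Scgb1c1, a secretoglobin (0.99), Slc25a34, a mitochondrial carrier (0.99), Abca4, a retinoid transporter (0.98), and Itga9, an integrin subunit (0.98). Scgb1c1 stood at 9.62 and 9.43 in Salv CKO 1 and 2 against 11.02 and 11.08 in the controls. Itga9 was at 10.87 and 10.88, against 11.69 and 11.76. The choice by likeness fixes that these genes part the groups, so this is a description with no test. All 5 had smaller differences than Stbd1, from -1.52 (Scgb1c1) to -0.82 (Slc25a34).

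**Figure D3:**
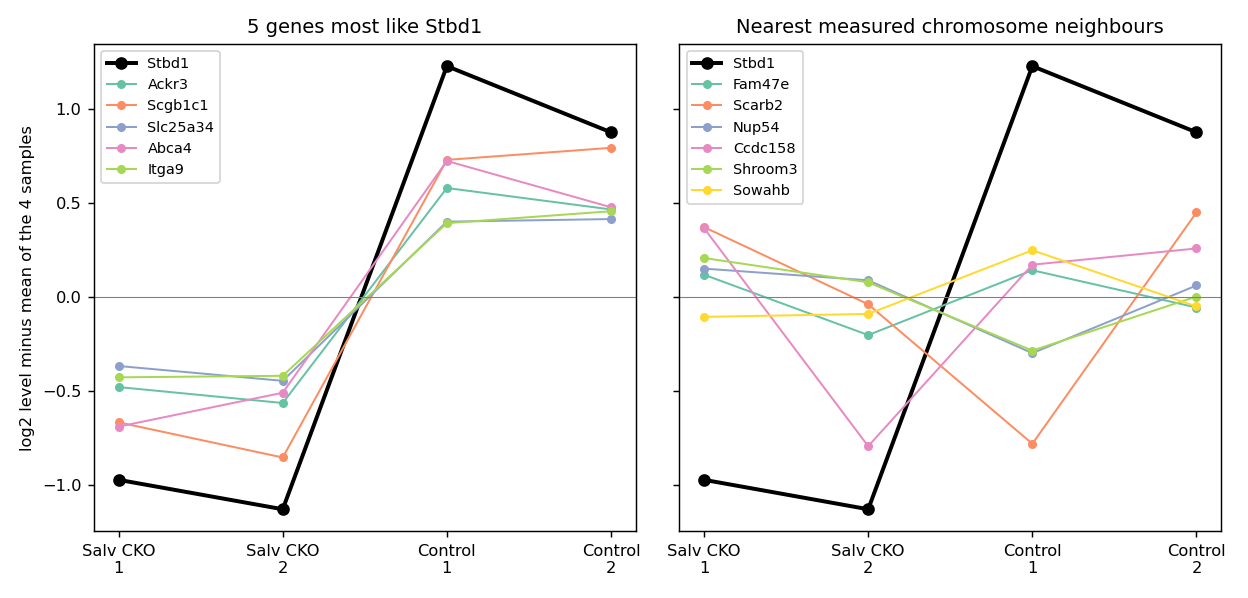
Level in each biological sample minus the mean of the 4 samples, on the log2 scale, for Stbd1 (black) with the 5 genes most correlated with it (left) and with its nearest measured neighbours (right); lines join the values of a gene and imply no order. The genes on the left part the groups by choice, while the brighter neighbours on the right (Scarb2, Nup54 and Shroom3) do not follow Stbd1. The other neighbours, Fam47e, Ccdc158 and Sowahb, are dim, so little can be read from them.

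Markers of other tissues were read beside Stbd1. All 13 brown fat and adipocyte markers were measured, and 11 had a lower mean in Salv CKO (12 with median centring, 10 without normalization), 8 of them without overlap. The other 2 had a higher mean, by at most 0.43, and 1 marker was higher without overlap. Over all genes 53.1% had a lower mean, 16.5% were lower without overlap and 14.2% were higher without overlap. The mean level of the 13 markers was 7.07 and 6.26 in Salv CKO 1 and 2, and 7.44 and 7.20 in the controls. Cfd (adipsin) differed by -1.80 ± 0.48 and Adig by -1.30 ± 0.46, with unadjusted p of 0.0149 and 0.041 in limma (adjusted p = 0.998 for both). Cidec, a lipid droplet protein, differed by -1.35 and Cidea by -0.47. Pparg (0.47 to 1.31) and Elovl3 (1.90 to 2.30) were near the floor and are kept in these counts. Of the 13, 9 were lowest in Salv CKO 2. Between Salv CKO 1 and Control 2 the markers were mixed: Cfd was at 5.51 and 6.57, Adig at 5.36 and 5.78 and Cidea at 11.68 and 12.10, while Ucp1, the uncoupling protein of brown fat, was at 11.95 and 11.74. Thus 8 of the 13 fat markers parted the groups in the direction of Stbd1 and 1 in the other direction, but the list was low mainly in Salv CKO 2. Its median deviation from the mean of the 4 samples was 0.090 and -0.39 in Salv CKO 1 and 2. In Control 1 and 2 it was 0.49 and 0.20. Stbd1 was low in both Salv CKO samples, at 8.29 and 8.14. The part of fat cells in the Stbd1 difference was not tested.

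Of the lung airway list, all 8 markers were measured, with mean levels of 5.50 and 3.72 in Salv CKO 1 and 2 against 3.78 and 6.93 in the controls, and 0 of 8 parted the groups. All 8 had a lower mean in Salv CKO (8 with median centring, 7 without normalization), where 53.1% of all genes did. Their median difference was -0.81, against -0.47 for the fat markers. Scgb3a2 had levels of 10.61 and 3.29 in Salv CKO 1 and 2, and of 4.02 and 11.55 in the controls. Sftpb differed by -1.18 and Bpifa1 by -0.78, both highest in Control 2. Scgb1a1 and Sftpd were likewise high in Salv CKO 1 and Control 2, while Foxj1, of ciliated cells, was lowest there. That split crosses the labels, and Stbd1 does not show it. Beyond the genes with the smallest p, the markers here were chosen after their values were seen. Liver markers (9 of 10 measured) had mean levels of 4.96 and 4.76 against 4.58 and 4.99. Fgb was higher in Salv CKO, with an unadjusted p of 0.0129 (limma, adjusted p = 0.998), at levels from 0.75 to 2.01. Alb, at 2.31 to 3.35, was dim, while Tat differed by 0.48. Skeletal muscle markers (5 of 14 measured) had mean levels of 6.92 and 6.94 against 7.08 and 6.88, with Actn3 at -0.45 and Tnni2 at 0.20. The heart muscle genes with the smallest p, Nppa and Actc1, each differed by -0.15.

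**Figure D4:**
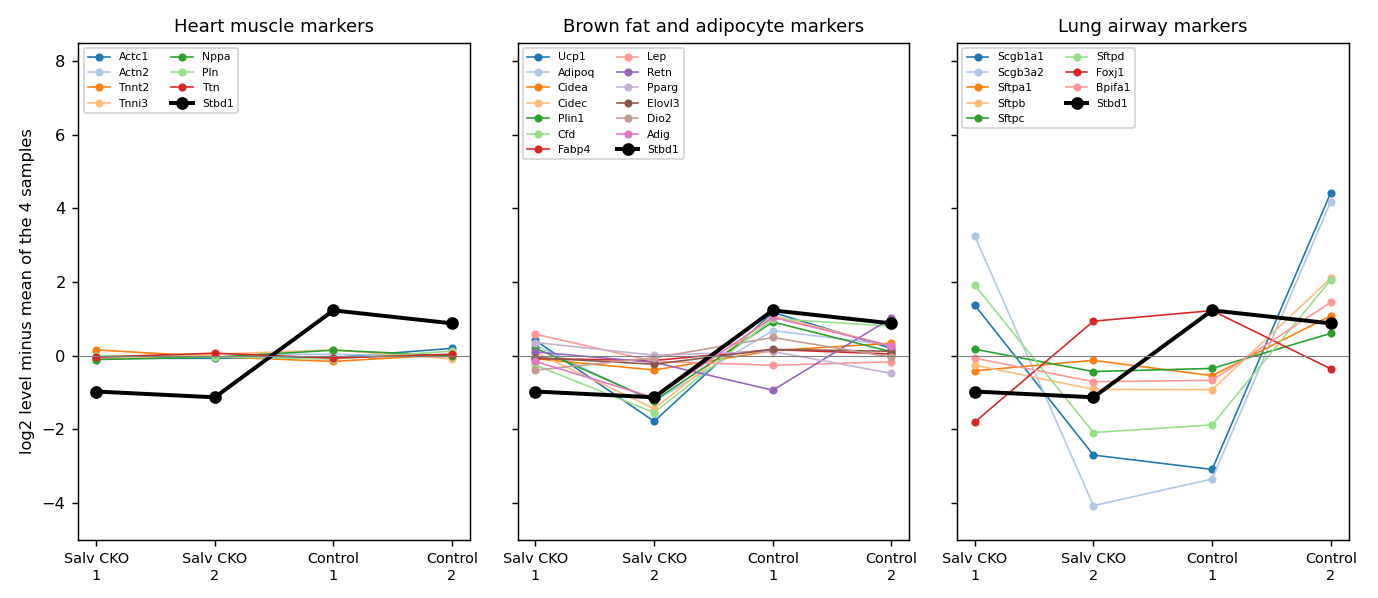
Level in each biological sample minus the mean of the 4 samples, on the log2 scale, for heart muscle, brown fat and adipocyte, and lung airway markers, with Stbd1 in black; lines join the values of a gene and imply no order. Heart markers are level, several fat markers are lowest in Salv CKO 2, and several airway markers are highest in Salv CKO 1 and Control 2.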

How the data were processed

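The authors deposited one table of Cy5 intensity values for 26423 probes on 12 arrays. Per the labels' protocols, amplified RNA was labelled through aminoallyl nucleotides. Values below 0 show that background had been subtracted; how it was done, the scanner and any scaling by the authors are each not given in the sources used here. Arrays were quantile normalized, negative ones were raised to the smallest positive one (0.0833; zeros too in the settings without quantile normalization), and log2(value + 1) was taken, which understates changes of dim probes. Each sample is the mean of its 3 technical arrays. Groups were compared, 2 against 2, with limma 3.58.1 in R 4.3.3 (lmFit and eBayes, two-sided). The fit had 2 residual degrees of freedom and a prior of 2.60, with Benjamini-Hochberg adjustment over all probes. On simulated data the procedure was checked for its estimates of planted differences, and its calls were not checked. No filter on low values was applied. The number of samples limits the precision.

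Of the probes, 20377 had 1 symbol, 0 several and 6046 none; 18213 matched the RefSeq table of GRCm38.p6 by symbol and 2126 by a unique synonym. A gene is given by its brightest probe. The members and lists were chosen with earlier results of these data known. The rule for naming genes took the 9 members, those of each list with an unadjusted p under 0.05 and up to 2 more with the smallest p, the 5 genes most like Stbd1, 3 neighbours on each side, and Sav1; other genes named were chosen after their values were seen. Promoter windows matched 5 of 5 genes. Alternatives covered scaling, pseudocount, technical arrays, dim probes, sample numbers as a block, probes of a gene and each sample left out; the crossed block was chosen after seeing the data. Figures were drawn with matplotlib 3.10.9.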

Additional observations from a re-analysis of the deposited data

How the results depend on the processing

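Stbd1 differed by -2.28 to -1.93 over its 12 alternatives. Gbe1 and Ppp1r3c kept their negative sign in theirs (-0.31 to -0.017 and -0.55 to -0.16). With all 4 samples, neither had an adjusted p under 0.05 in limma. Leaving out dim probes, the replicate and crossed blocks and the random block cannot move a difference, only its error. The ranges thus rest on the other alternatives. Phka1 ran from -0.65 to 0.025 with 1 sample left out, and Gaa differed by 0.16 as the mean of its 2 probes. The dimmer Gaa probe ran from -0.038 to 0.94 with 1 sample left out, -0.038 being without Control 1. The count of 0 probes past the threshold became 10 with arrays centred on their medians, 11 without normalization (median of all probes 0.11) and 61 with 12 arrays and the sample as a random block. Of the 48 other pathway genes, 0 had an unadjusted p under 0.05; this became 2 with a pseudocount of 16 (Nhlrc1 and Ppp1r1a), 5 with the random block (Nhlrc1, Lamp2, Wipi1, Ppp1r3c and Ppp1r1a), and 0 to 2 with 1 sample left out (Gsk3a without Salv CKO 2, Gabarap and Gsk3b without Control 2). The cause was not tested. Sample numbers do not mark a known pairing: deviations of same-numbered samples correlated at -0.25 over probes. Over probes at or above the median brightness the value was -0.48. Whole profiles did not group by label. Over all probes, Salv CKO 1 had a Pearson r of 0.9865 with Control 2 and 0.9852 with Salv CKO 2. Control 1 had 0.9836 with Salv CKO 2 and 0.977 with Control 2. Salv CKO 2 was nearest to Salv CKO 1. With the replicate block 0 probes were called, 0 pathway genes had an unadjusted p under 0.05, and no call changed. The crossed pairing called 0 probes and gave 1 pathway gene. The 2 samples per group, and for dim probes the signal over background, limit what can be read.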
